A study of Mus musculus with 14 samples.

Results

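The genes described here encode the subunits of the hypoxia-inducible factors (HIF) and the proteins that sense oxygen for them. They were chosen by gene symbol: the alpha subunits Epas1 (HIF2A), Hif1a and Hif3a, the partner subunits Arnt and Arnt2, the prolyl hydroxylases Egln1, Egln2 and Egln3, the ligase subunit Vhl and the asparaginyl hydroxylase Hif1an. All 10 were among the 31274 gene symbols of the expression table, and 9 of them passed the filter on low values. Hif3a did not, and its levels are given without a test. RNA of the whole uterus had been sequenced from FVB/N mice, 2 months old, intact and untreated. There were 4 wild-type (WT) libraries at diestrus, 3 WT libraries at estrus, and 4 and 3 libraries labelled HIF2A cKO, a conditional knockout, at the same stages. The labels name neither the Cre driver nor the deleted exons, and they do not say that libraries of a group came from separate animals. All p-values therefore reflect the spread among libraries alone, and that spread may be technical.

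In cells with enough oxygen, the prolyl hydroxylases modify the HIF alpha subunits, and the von Hippel-Lindau protein encoded by Vhl then marks them for destruction. Hif1an hydroxylates an asparagine of the alpha subunits and limits their binding to coactivators. When oxygen falls, the alpha subunits persist, pair with Arnt or Arnt2 and bind short DNA elements with the core ACGTG or GCGTG. This control acts on the proteins, so mRNA levels show only the supply of each component. Egln3 and, in many cells, Egln1 are themselves HIF target genes. The uterus is a mixed tissue of epithelium, stroma, muscle and vessels, and Epas1 is known for its high expression in endothelium.

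FPKM counts fragments relative to the length of the transcript and the size of the library, so levels can be set beside each other between genes. Averaged over the 14 libraries, Hif1a was the most abundant of the genes at 58.9 FPKM. Egln2, Egln1 and Epas1 followed at 37.5, 37.3 and 37.1, which were closer than the spread between libraries. Arnt stood at 24.3, Vhl at 16.2, Egln3 at 14.5 and Hif1an at 12.3, with Arnt2 just below Egln3. The means of Egln3 and Arnt2 depended on the stage, so their place in this order differed between groups. Hif3a, at 0.508 FPKM, was the least abundant.

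**Figure D1:**
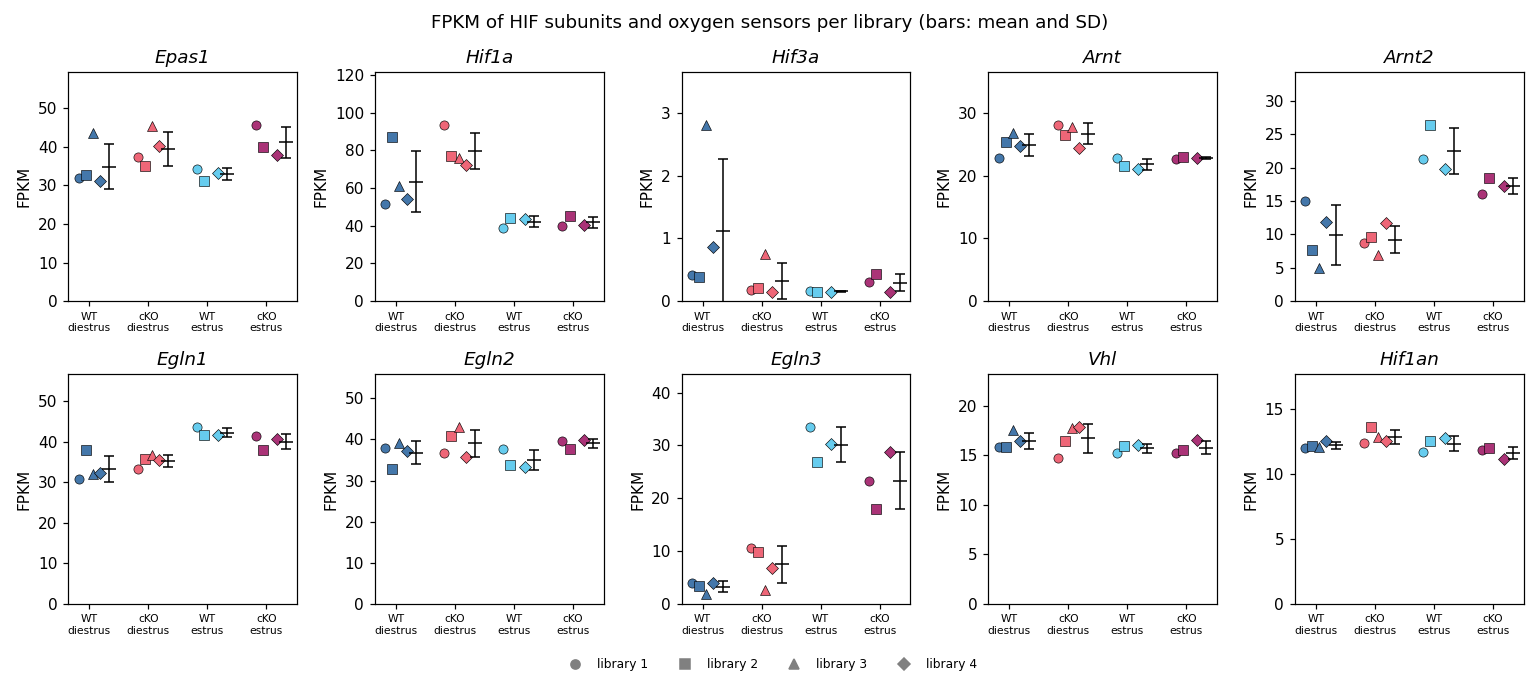
FPKM of each of the 10 genes in each library, by group, with the mean and SD as bars (ended at 0 for Hif3a in WT diestrus) and the marker shape giving the library number. The estrus libraries lie above every diestrus library of the same genotype for Egln3, Arnt2 and Egln1 and below them for Hif1a, while Epas1 and Vhl overlap between stages.

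The libraries were first compared as a whole. The FPKM values of a library summed to between 437880 and 497690, and the number of reads behind them was unknown. Both diestrus libraries numbered 3 stood apart in markers of other cell types: the summed level of 9 endothelial markers was 363.6 FPKM in WT and 328.8 in the library labelled HIF2A cKO, against 199.4 to 234.4 in the other diestrus libraries. Their summed level of 8 epithelial markers was the lowest of their groups, 342.7 against 448.0 to 577.9 in WT and 413.1 against 727.7 to 922.5. Another pair of libraries had the highest 45S ribosomal signal (Rn45s), HIF2A cKO diestrus 4 at 1890.5 FPKM and HIF2A cKO estrus 1 at 818.6, against 208.1 to 577.9 in the others. Every epithelial, stromal and smooth muscle marker was detected in all libraries, and markers of ovary and oviduct summed to at most 11.5 FPKM.

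Epas1, the gene named by the genotype label, lies on chromosome 17 from 86753700 to 86833410 on the plus strand (GRCm38). In the 4 WT diestrus libraries it stood at 31.9, 32.7, 43.5 and 31.2 FPKM, and in the 4 diestrus libraries labelled HIF2A cKO at 37.3, 35.1, 45.4 and 40.1. At estrus it stood at 34.2, 31.2 and 33.3 in WT and at 45.7, 39.9 and 38.0 in the libraries labelled HIF2A cKO. The genotypes overlapped at diestrus, where the cKO label was the higher in 4 of 4 same-number pairs. They did not overlap at estrus, where the cKO label was again the higher. The level was thus not lower under the cKO label, and every direction between genotypes given here rests on the labels. A whole-gene FPKM does not resolve exons, so it is no check of a deletion limited to some exons or some cells.

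The stages did not differ detectably in Epas1. On the log2(FPKM + 1) scale, on which all differences below are given, estrus minus diestrus was -0.07 in WT (95% interval -0.32 to 0.19) and 0.06 in the libraries labelled HIF2A cKO (-0.19 to 0.31). HIF2A cKO minus WT was 0.18 at diestrus (SE 0.108, limma adjusted p = 0.227) and 0.31 at estrus (SE 0.125, limma adjusted p = 0.605). Averaged over the stages the difference was 0.25 (95% interval 0.07 to 0.43), with a limma adjusted p of 0.0701. An exact two-sided permutation test of this gene alone, with genotype labels permuted within each stage, gave p = 0.0171 over 1400 arrangements, of which the smallest possible p is 0.00143. With quantile normalization this p was 0.0757, and without both libraries of highest Rn45s 0.0514. The p of this test is unadjusted. Of all genes, 30.2% had an unadjusted limma p under 0.05 in the averaged comparison. The permutation test did not use the library numbers that the groups share. Its stage-wise p was 0.229 at diestrus and 0.1 at estrus, the smallest that 3 against 3 libraries allow. The averaged difference passed the limma threshold in 4 of 26 alternatives (adjusted p from 0.00151 to 0.208), among them the fit with the replicate number as a block (adjusted p = 0.0135) and the fit without WT diestrus replicate 3 (0.30, adjusted p = 0.0233). Without that library the diestrus difference passed too (0.29, adjusted p = 0.0391, with 0.0391 to 0.595 over the alternatives).

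Endothelial markers moved with Epas1 between libraries. After subtraction of group means, log2 Epas1 correlated with the log2 summed endothelial level at r = 0.92 over 14 libraries, and at r = 0.63 over the 12 libraries without both diestrus libraries numbered 3. Epas1 was not alone in this. Egln1 stood at r = 0.24 over 14 libraries and 0.81 over 12, and Hif3a at 0.77 and -0.39. These points share their library and its scaling, so r is a description. The part of the endothelium in the genotype difference was not tested. Between genotypes at estrus, the endothelial sums were 161.2 to 191.6 FPKM in WT and 174.2 to 198.5 in the libraries labelled HIF2A cKO, and 0 of the 9 markers passed the threshold in limma, which called 0.105% of all genes in this comparison. At diestrus 1 of the 9 passed, the vascular endothelial growth factor receptor Kdr. It was higher under the cKO label by 0.53 (limma adjusted p = 0.00798), and also averaged over the stages (0.30, limma adjusted p = 0.0439). Of all genes, 13.8% were higher at diestrus and 6.22% averaged over the stages. The median difference of the 9 markers was -0.03 and 0.03, so Kdr does not stand for the list. At diestrus Tek, another endothelial receptor, stood at -0.54 (limma adjusted p = 0.0615). The ratio of Epas1 to Pecam1, an endothelial adhesion molecule, was 0.715 to 0.812 in WT and 0.851 to 0.944 in the libraries labelled HIF2A cKO at estrus, without overlap. At diestrus these ratios overlapped, 0.604 to 0.811 against 0.738 to 0.902. The ratio was chosen after its values were seen and carries no test. In whole tissue, fewer cells of a type and less RNA per cell cannot be told apart.

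Hif1a, the other main alpha subunit, fell at estrus in both genotypes. It lies on chromosome 12 from 73901375 to 73947530, plus strand, and overlaps an antisense gene (Gm15283) and a protein-coding gene on the same strand (Gm49321). WT diestrus libraries stood at 51.8, 86.9, 61.3 and 54.0 FPKM and WT estrus libraries at 38.6, 44.3 and 43.6. The libraries labelled HIF2A cKO stood at 93.6, 77.1, 75.9 and 72.1 at diestrus and at 39.8, 45.04 and 40.4 at estrus. The stages did not overlap in either genotype, whereas the estrus groups of the genotypes did. The difference was -0.55 in WT (SE 0.150, limma adjusted p = 0.00746) and -0.91 in the libraries labelled HIF2A cKO (SE 0.150, limma adjusted p = 0.000187). It passed the threshold in all 20 alternatives of each comparison. The difference between these changes was -0.36 (95% interval -0.82 to 0.10) and did not pass the threshold (limma adjusted p = 0.387). Of 7 stromal fibroblast markers, 5 fell and 1 rose at estrus in WT, and 4 fell and 2 rose under the cKO label. Over all genes, 34.1% fell and 23.0% rose in WT, and 36.5% and 25.5% under the cKO label. The stromal markers summed to 1834 to 2657 FPKM in WT at diestrus and 1716 to 1889 at estrus. Under the cKO label they summed to 1717 to 2524 and 1992 to 2034, with a higher median at estrus (2016) than at diestrus (1820). Dcn was the largest term of this sum. Its mean went from 909 to 1142 FPKM at estrus in WT and from 841 to 1342 under the cKO label. The median difference of the 7 markers was -0.76 in WT and -0.75 under the cKO label, so the sum does not stand for most of them. The part of the stroma in the fall of Hif1a was not tested.

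At diestrus, the mean of Hif1a was 63.5 ± 16.1 FPKM (SD, n = 4) for WT and 79.7 ± 9.53 (SD, n = 4) under the cKO label, a difference of 0.35 (SE 0.139) that missed the threshold (limma adjusted p = 0.0848). WT library 2, at 86.9, was above 3 of the 4 libraries labelled HIF2A cKO. Without it the difference was 0.51 and passed (limma adjusted p = 0.00406, with 0.000572 to 0.223 over the alternatives), and that averaged over the stages passed as well (0.25, adjusted p = 0.0365). At estrus the difference was -0.02 (95% interval -0.36 to 0.33).

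Epas1 made up a larger mean share of the alpha subunit mRNA at estrus. It was 35.5% ± 5.73 of the summed alpha subunit FPKM in WT at diestrus (SD, n = 4) and 43.8% ± 2.88 at estrus (SD, n = 3). The corresponding shares under the cKO label were 33.2% ± 4.03 (SD, n = 4) and 49.5% ± 3.38 (SD, n = 3). The ratio of Epas1 to Hif1a was 0.377 to 0.710 in WT at diestrus and 0.703 to 0.886 at estrus, with a small overlap. In the libraries labelled HIF2A cKO it was 0.399 to 0.598 and 0.886 to 1.15, without overlap. Only HIF2A cKO estrus 1 had more Epas1 than Hif1a.

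Hif3a, which encodes an alpha subunit with splice forms that can oppose the others, was near the lower end of what could be measured. It stood at 0.416, 0.379, 2.81 and 0.864 FPKM in WT at diestrus and at 0.184, 0.208, 0.749 and 0.147 in the diestrus libraries labelled HIF2A cKO. At estrus all 6 libraries were between 0.151 and 0.431. The highest value of each diestrus group was in library 3, the libraries with the highest endothelial sums. It reached 1 FPKM in 1 library and was not tested.

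Arnt2 rose at estrus in both genotypes, and Arnt fell slightly. Arnt is the general partner of the HIF alpha subunits, and Arnt2 is a related partner best known from neural tissue. Arnt2 (chromosome 7, 84246278 to 84410176, minus strand) overlaps an antisense gene, Gm30873. Arnt2 stood at 15.1, 7.71, 4.98 and 11.9 FPKM in WT at diestrus and at 21.4, 26.5 and 19.8 at estrus. The libraries labelled HIF2A cKO had 8.67, 9.68, 6.92 and 11.7 at diestrus and 16.1, 18.5 and 17.3 at estrus. The stages did not overlap, and the lowest diestrus value of each genotype was in library 3. The rise was 1.20 in WT (SE 0.270, limma adjusted p = 0.00228) and 0.86 under the cKO label (SE 0.270, limma adjusted p = 0.0143), past the threshold in all 20 alternatives of each. At estrus the 3 libraries labelled HIF2A cKO were all below the 3 of WT, but the difference of -0.35 (95% interval -0.98 to 0.27) did not pass (limma adjusted p = 0.881). Deviations of Arnt2 from its group means correlated with those of the endothelial sum at r = -0.85 over 14 libraries and r = -0.61 over 12, without the diestrus libraries numbered 3. Whether the endothelial content plays a part in the rise was not tested.

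Arnt ranged from 22.8 to 26.9 FPKM in WT at diestrus and from 21.1 to 22.9 at estrus, and from 24.4 to 28.1 and 22.6 to 23.0 under the cKO label. The fall of 0.18 on the log2 scale in WT had a limma adjusted p of 0.0301. It lost the threshold in 9 of 20 alternatives (adjusted p from 0.0127 to 0.162), including the replicate block (0.0571), median-of-ratios scaling (0.162), quantile normalization (0.0989) and the fits without WT diestrus replicate 2 (0.0594) or 3 (0.0787) or WT estrus replicate 2 (0.0862) or 4 (0.105). Under the cKO label Arnt fell by 0.22 (limma adjusted p = 0.0122), and this was lost with the same scalings (adjusted p = 0.0574 and 0.148, the highest of 0.00038 to 0.148 over the alternatives). Arnt2 made up 27.8% ± 10.6 of the summed FPKM of the pair in WT at diestrus (SD, n = 4) and 50.6% ± 3.94 at estrus (SD, n = 3). Its share was 25.7% ± 5.29 (SD, n = 4) and 43.1% ± 1.51 (SD, n = 3) under the cKO label.

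**Figure D2:**
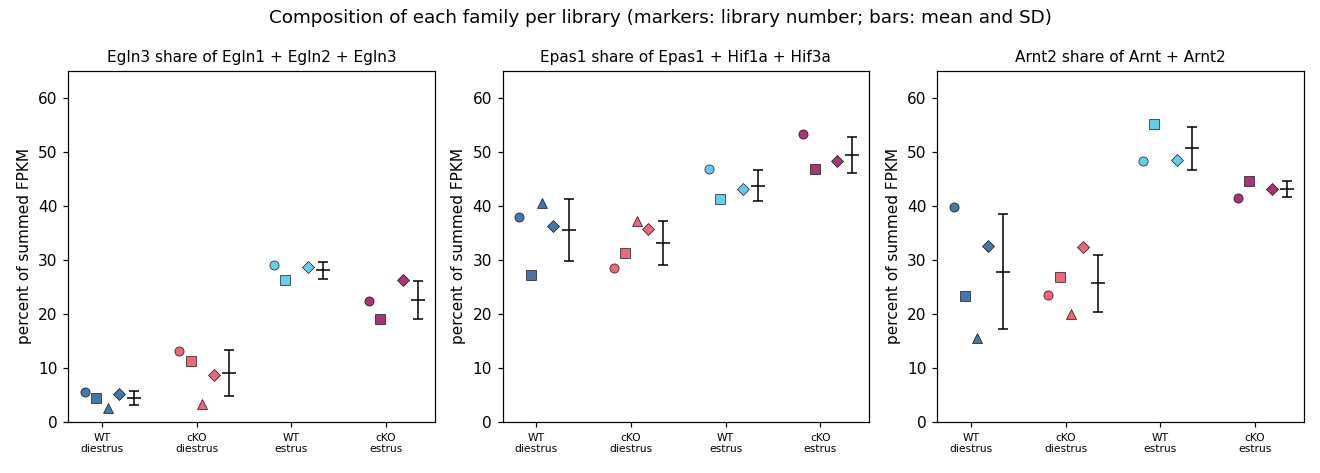
Share of Egln3 among the prolyl hydroxylases, of Epas1 among the alpha subunits and of Arnt2 among the partner subunits, as percent of summed FPKM in each library, with the group mean and SD as bars. Each share is higher at estrus than at diestrus in both genotypes, and the mean Egln3 share is 4.45% at diestrus and 28.1% at estrus in WT.

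The 3 prolyl hydroxylase genes were next compared. The stretches before their start sites are shown because the genes share an enzymatic activity and differed in how they followed the cycle. They are RefSeq sequences (build GRCm38.p6, minus strand), ended before the first transcribed base of RefSeq and GENCODE, and read 5′ to 3′. Capitals mark ACGTG or GCGTG on either strand, where the other strand reads CACGT or CACGC. A HIF core is a short motif, and a match is a description of the letters, not a site.
Egln1, chr8:124949325-124949504: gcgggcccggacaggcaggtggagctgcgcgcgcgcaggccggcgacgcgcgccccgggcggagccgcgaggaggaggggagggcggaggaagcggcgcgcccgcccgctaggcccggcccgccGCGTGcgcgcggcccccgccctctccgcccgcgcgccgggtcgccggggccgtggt
Egln2, chr7:27166803-27167052: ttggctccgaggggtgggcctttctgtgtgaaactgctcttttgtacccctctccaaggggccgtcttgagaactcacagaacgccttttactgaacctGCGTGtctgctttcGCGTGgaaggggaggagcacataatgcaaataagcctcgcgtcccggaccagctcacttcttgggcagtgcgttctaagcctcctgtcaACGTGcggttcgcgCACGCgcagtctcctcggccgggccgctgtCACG
Egln3, chr12:54203875-54204124: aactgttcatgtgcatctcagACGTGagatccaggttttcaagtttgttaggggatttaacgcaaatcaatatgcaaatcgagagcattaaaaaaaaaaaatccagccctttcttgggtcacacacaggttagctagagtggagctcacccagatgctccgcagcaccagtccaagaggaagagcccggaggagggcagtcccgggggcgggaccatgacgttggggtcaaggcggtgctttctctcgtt

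The stretch of Egln1 has 180 bases and the others 250. In these stretches Egln1 and Egln3 each held 1 whole motif and Egln2 held 4, and the last letters of Egln2 open a palindrome that runs past its start. Over windows of 250 bases before to 50 after the RefSeq start, 9 of the 10 genes had an entry and 6 held at least 1 motif. Egln1 held 2 in this window, Egln3 held 1, and Egln2 held 6 in the window shown in part above and 1 in that of another start. Of all 32851 RefSeq windows of this length, 43.8% held one (19.6% ACGTG and 32.4% GCGTG).

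Egln3 (chromosome 12, 54178981 to 54203860, minus strand) showed the largest stage difference of the 9 tested genes. It stood at 4.03, 3.28, 1.90 and 3.87 FPKM in WT at diestrus and at 33.4, 26.9 and 30.2 at estrus. The libraries labelled HIF2A cKO had 10.5, 9.73, 2.69 and 6.82 at diestrus and 23.3, 17.9 and 28.7 at estrus. The stages were far apart in both genotypes, and in each diestrus group library 3 was the lowest. The rise was 2.90 in WT (SE 0.332, limma adjusted p = 1.85e-05), 7.44-fold on the FPKM + 1 scale. Under the cKO label it was 1.63 (SE 0.332, limma adjusted p = 0.000932), 3.09-fold, and each rise passed the threshold in all 20 alternatives.

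The mean of Egln3 under the cKO label was above that of WT at diestrus and below it at estrus. At diestrus Egln3 was higher under the cKO label in 4 of 4 same-number pairs, by 0.89 (SE 0.308), which missed the threshold (limma adjusted p = 0.0525). At estrus, where the groups overlapped, the difference was -0.38 (95% interval -1.15 to 0.39) and did not pass (limma adjusted p = 0.910). The diestrus difference passed in 6 of 22 alternatives (adjusted p from 0.000352 to 0.158). Among these were the replicate block (adjusted p = 0.0047), the block in the diestrus libraries alone (0.0321) and the fit without HIF2A cKO diestrus replicate 3 (1.25, adjusted p = 0.0013). The interaction, the rise under the cKO label minus that in WT, was -1.27 (SE 0.470, limma adjusted p = 0.213). It passed in 4 of 26 alternatives (adjusted p from 0.00128 to 0.381), with the block (0.0373) and without HIF2A cKO diestrus replicate 3 (-1.62, adjusted p = 0.0132).

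Epithelial markers moved with Egln3. The summed level of 8 epithelial markers was 342.7 to 577.9 FPKM in WT at diestrus and 951.3 to 1154 at estrus, with 8 of 8 markers higher, and 413.1 to 922.5 and 1216 to 1357 under the cKO label, with 6 of 8 higher. Of all genes, 23.0% were higher at estrus in WT and 25.5% under the cKO label. Between genotypes at diestrus 1 of 8 markers was higher under the cKO label, near the 13.8% of all genes. Deviations of Egln3 and of the epithelial sum from their group means correlated at r = 0.93 over 14 libraries and at r = 0.52 over 12, without the diestrus libraries numbered 3. Over these 12 libraries the link was not particular to Egln3: Egln2 stood at r = 0.57 and Vhl at -0.55. The other members lay between -0.15 and 0.19. The part of the epithelium in these differences was not tested. At estrus the epithelial sums of the libraries labelled HIF2A cKO were all above those of WT. There limma called 0 of the 8 markers and 0.105% of all genes, and the Egln3 values of the genotypes overlapped.

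**Figure D3:**
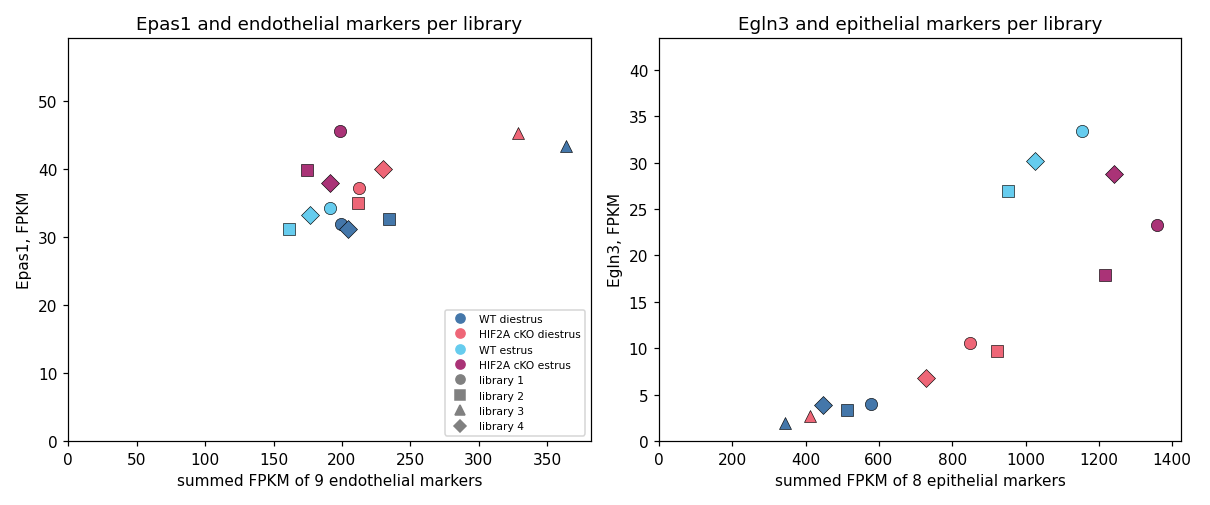
Left, FPKM of Epas1 against the summed FPKM of 9 endothelial markers in each library. Right, FPKM of Egln3 against the summed FPKM of 8 epithelial markers. Colours give the group and shapes the library number, and both diestrus libraries numbered 3 lie at the endothelial-rich and epithelial-poor ends.

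Egln1 (chromosome 8, 124908587 to 124949324, minus strand), the main prolyl hydroxylase in most cells, rose modestly at estrus. WT diestrus libraries stood at 30.9, 38.1, 32.1 and 32.4 FPKM and WT estrus libraries at 43.6, 41.6 and 41.6. The values under the cKO label were 33.3, 35.7, 36.7 and 35.5 at diestrus and 41.6, 37.9 and 40.7 at estrus. Stages did not overlap in either genotype. The rise was 0.34 in WT (SE 0.070, limma adjusted p = 0.00138), past the threshold in all 20 alternatives. Under the cKO label it was 0.18 (SE 0.070, limma adjusted p = 0.0415) and was lost in 8 of 20 alternatives (adjusted p from 0.0019 to 0.161). These were the replicate block (0.0662), eBayes without a trend (0.0507), the fit without both libraries of highest Rn45s (0.161), and those without HIF2A cKO diestrus replicate 1 (0.102), 2 (0.0621) or 4 (0.0569) or HIF2A cKO estrus replicate 1 (0.139) or 4 (0.110).

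Egln2, a prolyl hydroxylase whose gene is not known for induction by low oxygen, kept to 32.9 to 42.9 FPKM over all libraries. Its stage difference was -0.07 in WT (95% interval -0.25 to 0.10) and 0.00 under the cKO label (-0.17 to 0.17). Averaged over the stages it was higher by 0.12 under the cKO label (95% interval 0.00 to 0.24, limma adjusted p = 0.163). The sum of the 3 prolyl hydroxylases was 73.5 ± 0.572 FPKM in WT at diestrus (SD, n = 4) and 107 ± 6.54 at estrus (SD, n = 3). It was 81.8 ± 3.39 (SD, n = 4) and 102 ± 8.09 (SD, n = 3) in the libraries labelled HIF2A cKO. Egln3 contributed 4.45% ± 1.33 of that sum in WT at diestrus and 28.1% ± 1.54 at estrus, and 9.09% ± 4.27 and 22.6% ± 3.57 under the cKO label (SD, n = 4 and 3).

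Vhl and Hif1an varied little between libraries. Vhl ranged from 14.7 to 17.8 FPKM over all libraries. Its stage difference was -0.06 in WT (95% interval -0.21 to 0.09) and -0.08 under the cKO label (-0.23 to 0.07). Hif1an ranged from 11.1 to 13.6 FPKM. Its stage difference was 0.02 in WT (95% interval -0.10 to 0.13), and -0.13 under the cKO label (-0.25 to -0.01), which missed the threshold (limma adjusted p = 0.0536). It passed without HIF2A cKO diestrus replicate 4 (-0.14, adjusted p = 0.0471), with 0.0119 to 0.336 over the alternatives. Between genotypes neither gene differed by more than 0.08 in either stage.

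**Figure D4:**
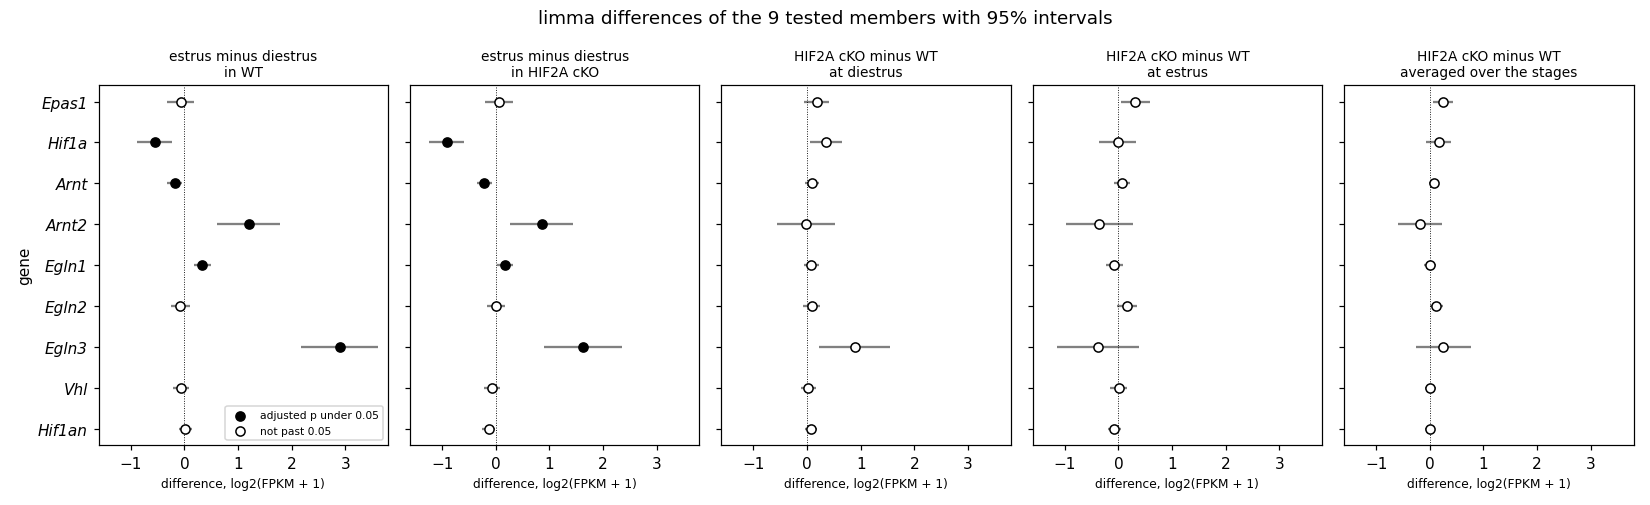
limma differences of log2(FPKM + 1) with 95% intervals for the 9 tested genes in 5 comparisons, with filled points where the adjusted p passed 0.05. Filled points lie only in the panels of estrus minus diestrus, where Egln3 is farthest to the right in WT at 2.90.

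Counted over the 9 tested genes, 3 rose and 2 fell at estrus in WT, and the same count held under the cKO label. Over all 14278 genes tested, 23.0% were higher and 34.1% lower at estrus in WT, and 25.5% and 36.5% under the cKO label. A called change with the cycle was thus common among all genes, and the members' counts were near that background. Their median stage difference was -0.06 in WT and 0.00 under the cKO label, against -0.09 and -0.08 over all genes. Between genotypes, limma called 0 of 9 at diestrus, at estrus and averaged over the stages, and 0 of 9 in the interaction. Of all genes tested, limma called 23.9% in either direction at diestrus, 0.105% at estrus, 10.5% averaged over the stages and 0.0350% in the interaction. At an unadjusted p under 0.05 the counts in the same order were 2 (Hif1a and Egln3), 1 (Epas1), 2 (Epas1 and Egln2) and 1 (Egln3), against 39.2%, 7.37%, 30.2% and 17.6% of all genes. limma with library weights called 3, 2, 6 and 2 of the members, and 55.2%, 9.32%, 50.9% and 36.6% of all genes. These comparisons share libraries and are not independent of each other.

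Some genes followed the pattern of single members over the libraries. Of 9696 genes with a mean of at least 5 FPKM, those most like Hif1a in log2(FPKM + 1) over 14 libraries were Lgals1 (r = 0.97), Gnl3l (0.97) and Glud1 (0.97). The r of deviations from group means was 0.85, 0.81 and 0.81. For Egln3 they were Mogat1, Ttc9 and Trpv6 (each r = 0.98), with 0.92, 0.81 and 0.90 for the deviations. For Epas1 they were Ehd4 (0.83), Psme1 (0.81) and Snx8 (0.80), with 0.83, 0.80 and 0.70. The 4 groups and the library scaling are shared by all of these points. The genes were picked for the highest r of 9696, a choice that raises r, also that of the deviations, so these values carry no test.

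Genes whose products act on the stability of the alpha subunits were described next. Of 11 genes of the VHL ligase and other stability partners, 1 rose and 6 fell in WT, and 2 rose and 7 fell under the cKO label, with medians of -0.29 and -0.45 (-0.09 and -0.08 over all genes, of which 34.1% and 36.5% fell). Tceb1, the elongin C that links the VHL protein to its ligase, fell by 0.79 in WT (limma adjusted p = 3.5e-05), from 59.3 ± 5.95 to 33.8 ± 2.31 FPKM (SD, n = 4 and 3). Under the cKO label Tceb1 fell by 0.69 (limma adjusted p = 6.48e-05). Tceb2, elongin B, fell by 0.76 under the cKO label (limma adjusted p = 2.48e-05), from 322.7 ± 21.4 to 189.8 ± 8.13. In WT Tceb2 fell by 0.48 (limma adjusted p = 0.00109). Hsp90aa1, a chaperone of HIF alpha subunits, fell by 1.18 in WT and 1.27 under the cKO label. The E3 ligase Siah1a rose by 0.41 and 0.54, and Os9 rose by 0.28 under the cKO label. Between genotypes at diestrus 2 of 11 were higher under the cKO label, against 13.8% of all genes: Siah2, an E3 ligase that targets prolyl hydroxylases, by 0.44 (limma adjusted p = 0.0180), and Tceb2 by 0.31 (limma adjusted p = 0.0283). Averaged over the stages Siah2 passed alone (0.32), where 6.22% of all genes were higher. The list had 0 calls in that comparison without both libraries of highest Rn45s, and 1 higher and 1 lower with the replicate block, with quantile normalization or without both libraries numbered 3.

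Of 10 HIF cofactors, 2 rose and 3 fell at estrus in each genotype, near the shares over all genes (23.0% and 34.1% in WT, 25.5% and 36.5% under the cKO label). With median-of-ratios scaling 4 rose and 2 fell in each genotype, and with quantile normalization 3 and 3. In the libraries labelled HIF2A cKO, 1 rose and 2 fell without both libraries of highest Rn45s. In WT 2 fell without both libraries of highest Rn45s, without both numbered 3 and with the replicate block. Cited2, which competes with HIF for the coactivators Ep300 and Crebbp, rose by 0.91 in WT and 1.47 under the cKO label. Crebbp rose by 0.29 in WT, and Ep300 by 0.27 under the cKO label. Their differences in the other genotype, 0.12 and 0.19, did not pass. Ruvbl2, an ATPase of chromatin complexes, fell by 0.90 in WT and 1.12 under the cKO label, and Ncoa1, a nuclear receptor coactivator, by 0.47 and 0.49. At diestrus Ruvbl2 (0.41) and Crebbp (0.26) were the 2 of 10 that were higher under the cKO label, against 13.8% of all genes. Ruvbl2 was also the 1 higher averaged over the stages (0.30), a count that became 2 with the replicate block and 3 without both libraries numbered 3.

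Of 11 other genes of the bHLH-PAS family, to which the HIF subunits belong, 5 passed the filter. The clock genes Arntl and Clock fell at estrus in WT, by 0.96 and 0.65, and under the cKO label, by 1.34 and 0.69. Ahr, the receptor for dioxin-like compounds that also pairs with Arnt, rose by 0.58 in WT (limma adjusted p = 0.0145). Under the cKO label 0 of the 5 rose, and 1 with the replicate block or without both libraries numbered 3. The shares over all genes were 23.0% rising and 34.1% falling in WT, and 25.5% and 36.5% under the cKO label.

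Other oxygen-dependent dioxygenases numbered 7. At estrus 1 rose and 2 fell in WT, and 0 rose and 3 fell under the cKO label, where 1 rose with the replicate block, with median-of-ratios scaling or without both libraries numbered 3. With quantile normalization 2 rose and 2 fell under the cKO label, and with median-of-ratios scaling 2 rose and 1 fell in WT. Over all genes in the main fit, 23.0% rose and 34.1% fell in WT, and 25.5% and 36.5% under the cKO label. P4htm, a prolyl hydroxylase of the endoplasmic reticulum, fell at estrus by 0.83 in WT and 0.42 under the cKO label, and the thiol dioxygenase Ado by 0.21 and 0.37. The histone demethylase Kdm5a rose by 0.37 in WT. A related demethylase, Kdm5c, was the 1 of 7 that was higher under the cKO label, by 0.29 at diestrus and 0.20 averaged over the stages. The share of all genes that were higher was 13.8% at diestrus and 6.22% averaged over the stages. The averaged count became 0 with quantile normalization and 2 without both libraries of highest Rn45s.

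Known HIF target genes, a list of 43 of which 42 were tested, moved in both directions. At estrus 21 rose and 6 fell in WT, and 23 rose and 9 fell under the cKO label, with medians of 0.31 and 0.48. Over all genes 23.0% rose and 34.1% fell in WT and 25.5% and 36.5% under the cKO label, with medians of -0.09 and -0.08. Epithelial markers rose at the same time, 8 of 8 in WT and 6 of 8 under the cKO label, and their part in these counts was not tested. Ankrd37 rose by 2.33 in WT and 1.89 under the cKO label, from 0.851 ± 0.167 to 8.36 ± 1.63 FPKM in WT (SD, n = 4 and 3). The glycolytic gene Aldoc rose by 2.24 in WT and 1.12 under the cKO label, and Bnip3, a mitophagy receptor, by 1.00 and 1.80. The collagen hydroxylases Plod2 and P4ha2 fell by 1.10 and 0.93 in WT and by 1.92 and 0.83 under the cKO label. Hk1, a hexokinase, fell by 0.91 in WT and 0.95 under the cKO label.

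Between genotypes at diestrus, 18 of the 42 target genes were higher and 3 lower under the cKO label, with a median of 0.37 against 0.02 over all genes. Of all 14278 genes tested, 13.8% were higher in this comparison and 1434 were lower. Car12, a carbonic anhydrase, stood at 11.2 ± 6.07 FPKM in WT and 31.8 ± 9.70 under the cKO label (SD, n = 4 each), a difference of 1.49 (limma adjusted p = 0.00626). Angptl4, an inhibitor of lipoprotein lipase, was higher by 1.17 (limma adjusted p = 0.0131). The lower genes were Mxi1 (-0.58), Bnip3 (-0.54) and Bnip3l (-0.41), the last named after its value was seen. Without both diestrus libraries numbered 3 the counts were 24 higher and 7 lower, and without both libraries of highest Rn45s 15 and 3. At estrus limma called 1 of 42, the lactate transporter Slc16a3, which was higher by 1.34 (limma adjusted p = 0.0316) at 14.7 ± 3.43 against 5.10 ± 0.678 FPKM (SD, n = 3 each). Of all genes 0.0700% were higher in this comparison. The count was 6 without both diestrus libraries numbered 3 and 0 without both libraries of highest Rn45s. Averaged over the stages 19 were higher and 0 lower, against 6.22% and 4.32% of all genes, led by Car12 (1.14) and Slc16a3 (0.97). With the replicate block the averaged counts were 23 and 4, without both libraries numbered 3 they were 25 and 6, and without both libraries of highest Rn45s 13 and 0. The interaction called Bnip3 alone (0.80, limma adjusted p = 0.0395, where 0.0140% of all genes were called higher), which became 4 genes with the block, 5 higher and 2 lower without both libraries numbered 3 and 0 without both libraries of highest Rn45s. The epithelial sums given beside Egln3 were also higher under the cKO label in 4 of 4 diestrus pairs and without overlap at estrus. Of the 8 single markers, limma called 1 higher at diestrus and 0 at estrus, against 13.8% and 0.0700% of all genes. Their median differences were 0.47 and 0.25. The part of the epithelium in the target gene counts was not tested. The list was described after earlier results on these samples were known, and its counts are no independent evidence of a direction.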

How the data were processed

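The authors deposited 1 table of FPKM values with 31274 gene symbols. TopHat2 2.0.4, Cufflinks 2.0.2 and the mouse build mm10 are named in the submitters' processing notes without their roles. No source used here gives the annotation, the strand setting or any further scaling. Libraries were made with an Illumina TruSeq kit from column-purified RNA, per the labels' protocols. FPKM hold no read counts, so depth is unknown. Low values gave relative depths of 0.94 to 1.35 in 5 of 13 pairs, and low levels are the least precise.

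The 14 libraries were grouped from their titles. limma 3.58.1 (R 4.3.3) was fitted to log2(FPKM + 1) of all libraries together, with group means, eBayes with a trend, and the Benjamini-Hochberg adjustment at 0.05. The filter asked for 1 FPKM or more in 3 libraries or more. It was followed by leaving out 7 genes listed at 0 throughout 1 group while another group averaged 50 FPKM or more, since such zeros can be failed estimates. This left 14278. The script was tested on simulated data.

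The members and lists were chosen with earlier results of these data known. All 10 members were named, with the 3 genes most like Epas1, Hif1a and Egln3, and from each list the 2 highest and 2 lowest called genes per comparison. Other genes were named after their values were seen. Alternatives were other pseudocounts, filters and scalings, eBayes without trend, library weights, the replicate block, the compared libraries alone and each library left out. After the data were seen, fits without both diestrus libraries numbered 3, without both libraries of highest Rn45s, and of the diestrus libraries with the block were added. The labels give groups the same replicate numbers. Residuals of same-number pairs correlated at 0.321, 0.115, 0.622 and 0.217 at diestrus and at 0.080, 0.096 and -0.048 at estrus. No correlations of libraries with different numbers are set beside these, so whether same-number libraries were paired is unknown. Gene positions are from GENCODE M21 and promoter windows from RefSeq, both GRCm38. Without strand, reads of a gene and its antisense partner cannot be told apart.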

Additional observations from a re-analysis of the deposited data

Results flagged for a closer look

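Of 20 pairs of a gene and a diestrus group, 2 had a library far from the other 3 by Dixon's criterion (critical value 0.829 for 4 samples), and chance gives about 1 in 20. Epas1 stood at 43.512 FPKM in WT diestrus 3, against 31.191 to 32.739 in the other WT diestrus libraries. Hif3a stood at 0.749 FPKM in HIF2A cKO diestrus 3, against 0.147 to 0.208 in the others of its group. Both libraries are numbered 3, and their endothelial marker sums were 363.6 and 328.8 FPKM.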

How the results depend on the processing

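The total of 5 members called between stages stayed within 1.5 times in every alternative of either genotype. By direction, the 2 that fell became 1 wherever the Arnt call was lost (9 of 20 alternatives in WT, 2 of 20 under the cKO label), and the 3 that rose under the cKO label became 2 wherever the Egln1 call was lost (8 of 20). Under the cKO label 3 fell in the 4 alternatives in which Hif1an passed, and 4 rose with library weights, where Epas1 passed. Of 200 values of the 10 called stage differences under alternatives, 19 lost the call, all of Arnt or of Egln1 under the cKO label, and 0 changed sign. The counts between genotypes were less stable. At diestrus, 0 of 9 became 1 with a filter of 5 FPKM, 3 with library weights, 1 with the replicate block, 1 with the block in the diestrus libraries alone and 2 without both diestrus libraries numbered 3, with 0 to 1 when each library was left out. At estrus, 0 became 2 with library weights. Averaged over the stages, 0 became 6 with library weights, 1 with the block and 1 without both libraries numbered 3, with 0 to 1 when each library was left out. In the interaction, 0 became 2 with library weights, 1 with the block and 1 without both libraries numbered 3, with 0 to 1 when each library was left out. Library weights called 55.2% of all genes at diestrus. For the other alternatives, of members and of gene lists alike, no share over all genes is set beside the counts. Shifts in these counts may be shared by all genes and are not read as a result about the members. The cause of these shifts was not tested. The exact permutation difference of Epas1 was 0.179 (p = 0.0757) with quantile normalization and 0.205 (p = 0.0514) without both libraries of highest Rn45s. Of 964 uncalled values 68 had another sign, 4 by more than 1 SE, and 33 gained the call. The block changed no call of a member other than those given with it. Depth is unknown, so the counting error of low genes such as Hif3a cannot be given.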
